A study of Arabidopsis thaliana with 12 samples.

Results

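Transcript levels of 10 salicylic acid defence genes were followed through 12 polyA RNA libraries from roots and whole rosettes of Arabidopsis thaliana, Columbia-0. The genes were PR1 (AT2G14610), PR2 (AT3G57260), PR5 (AT1G75040), DMR6 (AT5G24530), DLO1 (AT4G10500), ICS1 (AT1G74710), EDS5 (AT4G39030), PBS3 (AT5G13320), PAD4 (AT3G52430) and EDS1 (AT3G48090). They were taken by locus from 33607 genes in each of 4 deposited tables, and 10 of 10 were found. The set was chosen after DMR6 had ranked high in rosettes on full medium, so the rosette values on full medium are given here as a description, without a test. The rosette values on Fe-deficient medium are treated the same way, because they are set against the same control libraries.

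The plants carried either 35spro:IMA1 ORF, which overexpresses the IMA1 peptide of the iron-deficiency response (IMA1 OE), or 35spro:EYFP, the transgenic control (EYFP OE). Each transgene is driven by a constitutive viral promoter and is represented by 1 line. All seedlings grew for 10 days on complete ES medium with 1.5% sucrose under continuous light, 25 to a plate, and were collected 72 hours after transfer. IMA1 OE plants were transferred to full medium or to medium without Fe that held 100 µM FerroZine, an iron chelator, whereas EYFP OE plants were transferred to full medium. EYFP OE plants on Fe-deficient medium were not analysed here, so the line and the medium change together wherever Fe-deficient IMA1 OE plants are compared with EYFP OE. The 6 groups of tissue, line and medium had 2 libraries each, and nothing in the labels says whether these came from separate cultures, so p-values measure the spread between these libraries, which may be technical.

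Salicylic acid is the hormone of defence against biotrophic pathogens in leaves. Most of it is made through isochorismate: ICS1 makes isochorismate in the plastid, EDS5 carries it out, and PBS3 joins it to glutamate, a conjugate that then breaks down to salicylic acid. EDS1 and PAD4 form a complex that relays signals from immune receptors and raises salicylic acid synthesis. The hormone is sensed by NPR proteins, which act with TGA transcription factors on output genes such as PR1, PR2 and PR5, whose products are secreted. DMR6 and DLO1 are related iron-dependent dioxygenases that hydroxylate salicylic acid and so lower its level.

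Promoter sequences are shown for the pair of hydroxylase genes, because both separate the lines in rosettes. They run from 250 bases before to 50 bases after the annotated gene start, and are from RefSeq, assembly TAIR10.1, whose nuclear chromosomes are those of TAIR10, the build in the submitters' processing notes. Capitals mark matches on either strand to TTGAC, the core of the W-box bound by WRKY factors, and to TGACG, a site of TGA factors.
DMR6, chr5:8378509-8378808, forward strand: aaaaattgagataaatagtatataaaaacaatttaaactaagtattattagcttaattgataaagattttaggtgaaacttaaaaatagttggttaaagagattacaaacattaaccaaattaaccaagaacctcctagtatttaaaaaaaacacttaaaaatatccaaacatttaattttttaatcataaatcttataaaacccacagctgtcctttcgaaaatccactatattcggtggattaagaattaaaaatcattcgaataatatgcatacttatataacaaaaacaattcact
DLO1, chr4:6490767-6491066, forward strand: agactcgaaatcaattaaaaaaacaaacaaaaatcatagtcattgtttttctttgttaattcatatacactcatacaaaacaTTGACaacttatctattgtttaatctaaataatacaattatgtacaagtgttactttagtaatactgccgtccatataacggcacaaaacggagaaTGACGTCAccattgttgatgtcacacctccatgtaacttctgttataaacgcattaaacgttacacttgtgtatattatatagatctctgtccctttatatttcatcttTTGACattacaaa
DLO1 held 2 TTGAC, and 2 TGACG matches that overlap on opposite strands 72 and 69 bases before its start. DMR6 held neither motif in this window. Of the 9 genes of the set whose promoters were searched, 6 had at least 1 TTGAC and 1, DLO1, had TGACG. Of 27443 promoters of protein-coding genes of the same length, 50.5% had TTGAC and 23.1% had TGACG. A match describes the letters in the window and does not show a binding site.

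The values are the authors' normalised expression signal, which has no stated unit. Genes with 1 equal low value in all libraries of a table had a median of 0.04 to 0.05 when under 500 bases long and of 0.01 when over 2000 bases long, so the signal was read as scaled to gene length. Such floor values cannot be told from no reads, and the depth of the libraries is unknown. Differences between lines are given on the log2(value + 1) scale, IMA1 OE minus EYFP OE, which understates changes of low genes. A gene entered the test of a table where 2 or more of the 4 libraries reached a value of 1.

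The labels of line and tissue were checked first. IMA1 (AT1G47400) stood at least 38.3-fold higher in every IMA1 OE library than in the EYFP OE library with the greater value. The summed signal of 6 leaf markers, such as RBCS1A, was 34200 to 36900 in rosette groups and 230.0 to 555 in root groups. The summed signal of 6 root markers, such as CASP1, was 2580 to 4610 in root groups and 87.8 to 188 in rosette groups. Most of this sum was PYK10, with EYFP OE means of 2200 in roots and 121 in rosettes. CASP1 had means of 78.9 and 0.74. RNA integrity numbers were 9.8 to 10 in roots and 8.3 to 8.7 in rosettes, per the labels. One heading goes against the labels: in the rosette table for Fe-deficient plants, both IMA1 OE columns say +Fe. Their assignment to the Fe-deficient samples follows the sample descriptions, in which the table is listed for those samples, and this doubt bears on every value given for Fe-deficient rosettes.

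In control plants the 10 genes differed by tissue. In EYFP OE roots EDS1, DMR6, EDS5 and PAD4 had the highest signals of the set, and the 3 PR genes were at the floor. In EYFP OE rosettes all 10 were detected. Root and rosette levels come from tables that were normalised separately, so they were not tested against each other.

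In EYFP OE roots PR1 was listed at 0.02 in each library, and in rosettes at 2.81 and 20.96. PR2, which encodes a secreted beta-glucanase, was at 0.01 in both root libraries and at 10.29 and 12.64 in rosettes. PR5, which encodes a thaumatin-like protein, was at 0.01 in both root libraries and at 6.79 and 10.12 in rosettes. The PR genes were thus at or next to the lowest value listed in roots and well above it in rosettes. The rosette replicates of PR1 differed 7.46-fold, replicate 2 being the higher, whereas those of PR2 differed 1.23-fold.

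The hydroxylase genes had the opposite order. DMR6 was at 24.73 and 24.51 in EYFP OE roots and at 16.30 and 14.59 in rosettes, a mean 1.59-fold higher in roots. DLO1 was at 4.06 and 3.11 in roots and at 0.76 and 0.46 in rosettes, 5.88-fold higher in roots. The isochorismate transporter gene EDS5 was at 15.91 and 16.90 in roots and at 5.19 and 4.51 in rosettes, 3.38-fold higher in roots. For these genes the root and rosette libraries did not overlap. ICS1, the synthase gene, was at 5.53 and 5.01 in roots and at 5.90 and 10.93 in rosettes, 1.6-fold higher in rosettes by the means, its nearest libraries being 5.53 and 5.90. PBS3 was at 0.29 and 0.37 in roots and at 2.37 and 2.19 in rosettes. The signalling pair was higher in roots: PAD4 was at 14.3 ± 1.61 there and at 9.10 ± 1.54 in rosettes, and EDS1 at 21.0 ± 0.226 and 14.4 ± 3.08 (SD, n = 2). Ordered by EYFP OE mean signal, the root levels ran from DMR6 (24.6) through EDS1 (21.0), EDS5 (16.4), PAD4 (14.3), ICS1 (5.27) and DLO1 (3.58) to PBS3 (0.33), and no neighbours in this order overlapped, the nearest libraries being those of EDS5 (15.91) and PAD4 (15.45). In rosettes the order was DMR6 (15.4), EDS1 (14.4), PR1 (11.9), PR2 (11.5), PAD4 (9.10), PR5 (8.46), ICS1 (8.41), EDS5 (4.85), PBS3 (2.28) and DLO1 (0.61). From DMR6 to EDS1, EDS1 to PR1, PR1 to PR2, PAD4 to PR5 and PR5 to ICS1 the replicate ranges of neighbours overlapped, so their order is not resolved.

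In rosettes on full medium the output genes and both hydroxylase genes stood several-fold higher in IMA1 OE than in EYFP OE, and the isochorismate pathway genes ICS1 and EDS5 overlapped between the lines. Of the 10 genes, 8 had both IMA1 OE libraries above both EYFP OE libraries and 0 had both below. Of the 18731 genes tested, 13.1% lay above in this way and 18.5% below, but the set was chosen on this comparison and nothing is read from its count. The median log2 difference was 1.25 over the 10 genes and -0.03 over all tested genes. In 5 genes, the 3 PR genes and both hydroxylase genes, the log2 difference was at least 1, beside 1.35% of all tested genes.

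PR1 was at 112.45 and 92.27 in IMA1 OE rosettes against 2.81 and 20.96 in EYFP OE, 8.61-fold higher by the means (log2 difference 3.49, SE 0.83). The groups were apart, the lower IMA1 OE library standing 4.40-fold above the higher EYFP OE library. The size of the difference turned on which control was used: the log2 difference was 2.23 without EYFP OE replicate 1 and 4.75 without replicate 2. PR2 was at 105.99 and 63.22 against 10.29 and 12.64, 7.38-fold higher (log2 difference 2.74, SE 0.28). PR5 was at 35.69 and 29.70 against 6.79 and 10.12, 3.87-fold higher (log2 difference 1.85, SE 0.22). Both groups of PR2 and PR5 were well apart, and PR2 varied more in IMA1 OE than in EYFP OE. By size of the log2 difference, PR1 was in place 2, PR2 in place 8 and PR5 in place 31 of all tested genes.

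DMR6, the gene that prompted the choice of the set, was at 53.03 and 48.68 in IMA1 OE rosettes against 16.30 and 14.59 in EYFP OE. The difference was 3.29-fold (log2 difference 1.66, SE 0.13), and replicates of each line lay close together. DLO1 was at 4.96 and 3.82 against 0.76 and 0.46, 7.20-fold higher by the means (log2 difference 1.74, SE 0.20). Its control values were under 1, so that its log2 difference was 2.68 with a pseudocount of 0.1. In place among all tested genes, DLO1 was 41, having passed the filter on low values only through its IMA1 OE libraries. DMR6 was in place 54, and its high rank here prompted the choice of the set. Neither place is therefore support.

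Of the synthesis genes, PBS3 was at 3.45 and 6.80 against 2.37 and 2.19, 2.25-fold higher (log2 difference 0.85, SE 0.29). Its IMA1 OE replicates differed 1.97-fold, and the log2 difference was 0.44 without IMA1 OE replicate 2. ICS1 was at 8.25 and 14.53 against 5.90 and 10.93 (log2 difference 0.40, SE 0.37). In both lines replicate 2 of ICS1 was the higher, and the lines overlapped. Its log2 difference was 0.01 without EYFP OE replicate 1, 0.80 without EYFP OE replicate 2, 0.78 without IMA1 OE replicate 1 and 0.03 without IMA1 OE replicate 2. EDS5 was at 3.55 and 5.89 against 5.19 and 4.51 (log2 difference -0.06, SE 0.23), the EYFP OE values lying inside the IMA1 OE range, and the sign turned without IMA1 OE replicate 1 (0.24). The signalling genes were modestly apart. PAD4 was at 11.22 and 17.69 against 8.01 and 10.19 (log2 difference 0.59, SE 0.25), with 0.28 without IMA1 OE replicate 2 and 0.90 without replicate 1. EDS1 was at 21.52 and 23.94 against 12.27 and 16.63 (log2 difference 0.63, SE 0.18). Exon sequence of EDS1 is nearly free of copies: 0.977% of its stretches of 50 bases occur elsewhere, some of them in its neighbour EDS1B (AT3G48080), and the share was at most 0.44% for the other 9 genes.

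**Figure D1:**
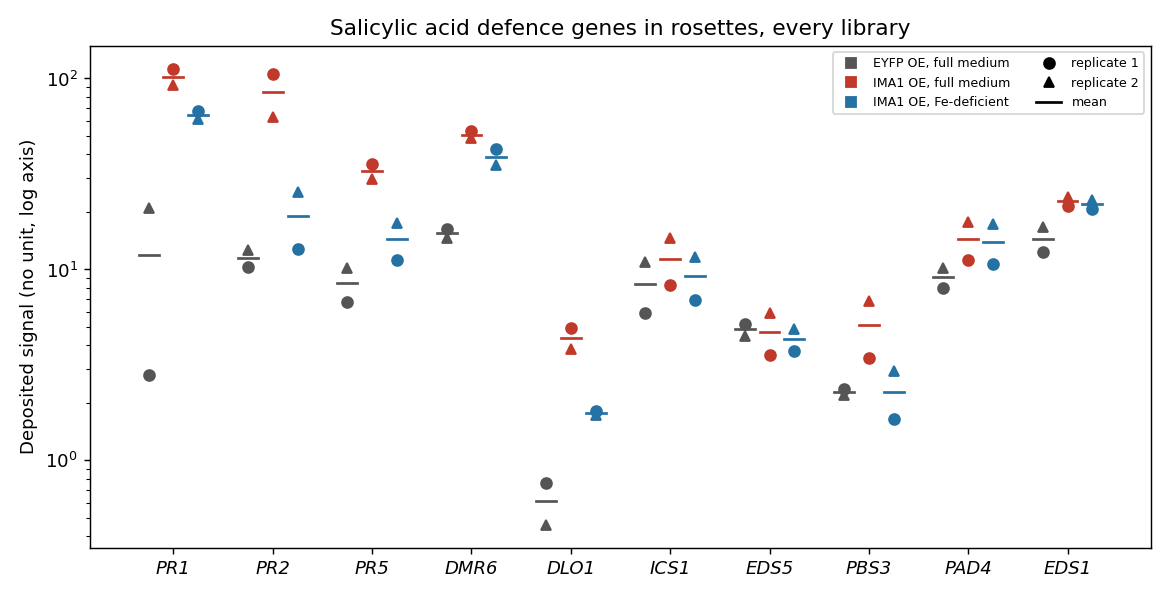
Signal of each gene in every rosette library on a log axis (no unit); circles and triangles are replicates 1 and 2, and short lines are means of the 2 libraries. PR1, PR2, PR5, DMR6 and DLO1 lie higher in both IMA1 OE groups than in EYFP OE. On Fe-deficient medium PR2 and PR5 do so narrowly (nearest libraries 12.76 and 12.64 for PR2, 11.15 and 10.12 for PR5). PR2 differs most between the media (means 84.6 and 19.0), while ICS1 and EDS5 overlap between groups.

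On Fe-deficient medium the IMA1 OE rosettes still had more PR1 and DMR6 than the EYFP OE rosettes on full medium, while PR2 and PR5 stood much nearer to the control. Both lines and both media are involved in this comparison, and the EYFP OE libraries are those already used above. Of the 10 genes, 7 had both IMA1 OE libraries above both EYFP OE libraries, beside 13.8% of 18691 tested genes. Both lay below in 0, beside 19.5%. With the controls shared, nothing is read from these counts. In 2 genes, PR1 and DMR6, the log2 difference was at least 1, beside 0.861% of all tested genes. The median log2 difference was 0.62 over the set and -0.03 over all tested genes, and it was 0.32 without IMA1 OE replicate 2.

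PR1 was at 67.90 and 61.53 against 2.77 and 20.69, 5.52-fold higher (log2 difference 2.86, SE 0.84, and 1.60 without EYFP OE replicate 1). DMR6 was at 42.67 and 35.23 against 16.07 and 14.37, 2.56-fold higher (log2 difference 1.3, SE 0.14). DLO1 was at 1.81 and 1.72 against 0.75 and 0.46, 2.92-fold higher by the means (log2 difference 0.79, SE 0.19). All 3 genes had groups apart by at least 2.19-fold between nearest libraries. PR2 was at 12.76 and 25.30 against 10.13 and 12.48 (log2 difference 0.64, SE 0.34). PR5 was at 11.15 and 17.61 against 6.68 and 9.94 (log2 difference 0.71, SE 0.28). For PR2 and PR5 the nearest libraries of the groups differed by a factor of 1.02 and 1.12, and without IMA1 OE replicate 2 the log2 differences were 0.17 and 0.41. Without EYFP OE replicate 1, that of PR5 was 0.46, and without IMA1 OE replicate 1, that of PR2 was 1.10. PBS3 was at 1.64 and 2.95 against 2.33 and 2.15 and no longer stood apart from the control. PAD4 and EDS1 had log2 differences of 0.56 (SE 0.26) and 0.60 (SE 0.18), beside 0.59 and 0.63 on full medium. That of PAD4 was 0.24 without IMA1 OE replicate 2 and 0.88 without replicate 1, and that of EDS1 was 0.40 without EYFP OE replicate 1. ICS1 and EDS5 overlapped between the groups, with log2 differences of 0.16 (SE 0.36) and -0.12 (SE 0.16), and both signs turned when 1 library was left out, ICS1 to -0.23 without EYFP OE replicate 1 and EDS5 to 0.03 without IMA1 OE replicate 1.

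The IMA1 OE rosettes on the 2 media can be set side by side, although their tables were normalised separately. The EYFP OE columns common to both tables differed by a median of -0.017 on the log2 scale, so the tables lie nearly on 1 scale. In 6 of the 10 genes both Fe-deficient libraries lay below both full-medium libraries, and in 0 above. Of 18582 genes, 12.6% lay below and 8.81% above. The set was chosen on the full-medium comparison, so nothing is read from its count, and the steps that follow are a description. PR2 had the largest step, from a mean of 84.6 to 19.0, or 4.45-fold lower on Fe-deficient medium. DLO1 was 2.49-fold, PR5 2.27-fold and PBS3 2.23-fold lower. PR1 was 1.58-fold and DMR6 1.31-fold lower. PAD4 and EDS1 were each 1.03-fold lower with overlapping libraries. In IMA1 OE roots 1 of the 10 genes lay lower on Fe-deficient medium, PR5 near the floor, and 1 higher, PAD4, beside 19.0% and 12.7% of 19573 genes. No test was made across tables. The medium and the table cannot be told apart in these values.

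In roots none of the 10 genes changed past the threshold, and the largest log2 difference among those tested was 0.27, for PAD4 on Fe-deficient medium. In bulk tissue, fewer cells of a type and less RNA per cell cannot be told apart. The summed leaf markers moved with the line in roots: they were 477 to 555 in EYFP OE, 252 to 390.0 in IMA1 OE on full medium and 230.0 to 334 on Fe-deficient medium. Of the 6 root markers, PYK10 was higher in IMA1 OE in both comparisons (means 2200 and 3560 on full medium), while PIN2 (62.8 and 62.4) and CASP1 (78.9 and 79.9) had near-equal means. The part of these markers in the root results was not tested. Roots played no part in choosing the set, so the test applies. On full medium, 6 of the 10 genes passed the filter on low values and 0 were called by limma, with 0 at an unadjusted p under 0.05. Among all 19741 tested genes 0.0355% were called and 4.22% had an unadjusted p under 0.05. IMA1 itself, 89.5-fold higher by the means, was not called in this comparison (limma adjusted p 0.0764). A lack of calls therefore does not show a lack of change. In Fe-deficient roots IMA1 was called (limma adjusted p 0.00766). On Fe-deficient medium 6 passed the filter and 0 were called, with 1, PAD4, at an unadjusted p under 0.05, beside 0.92% called and 9.14% unadjusted among 19673 tested genes. Both IMA1 OE libraries lay above both EYFP OE libraries for 3 of the 6 on full medium and for 2 of the 6 on Fe-deficient medium, beside 13.8% and 17.8% of all tested genes. The authors' deposited table gave 0 of the 10 genes a p-value under 0.05 in either root comparison, beside 0.755% and 1.71% of all tested genes.

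DMR6 was at 30.35 and 24.65 in IMA1 OE roots on full medium against 24.73 and 24.51 in EYFP OE (log2 difference 0.15, SE 0.11, limma adjusted p 1). In Fe-deficient IMA1 OE roots it was at 36.03 and 23.46 against 24.46 and 24.25 (log2 difference 0.25, SE 0.20, limma adjusted p 0.793), and the log2 difference was -0.05 without IMA1 OE replicate 1. In both cases replicate 1 was high and replicate 2 lay next to the control values. The log2 difference of DLO1 was -0.07 on full medium (SE 0.15, limma adjusted p 1) and turned to 0.08 without EYFP OE replicate 1. Fe-deficient plants gave -0.15 (SE 0.17, limma adjusted p 0.855). For neither hydroxylase gene did the difference in roots pass the test.

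PAD4 was at 16.93 and 16.69 against 13.18 and 15.45 on full medium (log2 difference 0.22, SE 0.10, limma adjusted p 1). In Fe-deficient IMA1 OE roots it was at 17.31 and 16.98 against 12.96 and 15.23 (log2 difference 0.27, SE 0.10, limma adjusted p 0.505). Its IMA1 OE libraries lay above both controls each time, by a narrow margin. EDS1 was at 23.29 and 21.33 against 20.83 and 21.15, and at 23.02 and 22.36 against 20.67 and 20.98 (log2 differences 0.08 and 0.12, limma adjusted p 1 and 0.701). ICS1 stayed between 4.90 and 5.70 in all root libraries of both tables. EDS5 stayed between 15.74 and 18.58. The PR genes were near the floor in every root library: PR1 at 0.02 throughout, PR2 at no more than 0.23 and PR5 at no more than 0.13. PBS3 was at 0.17 and 0.06 against 0.29 and 0.37 on full medium. These 4 genes were too low to test, and no fold is given for them.

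**Figure D2:**
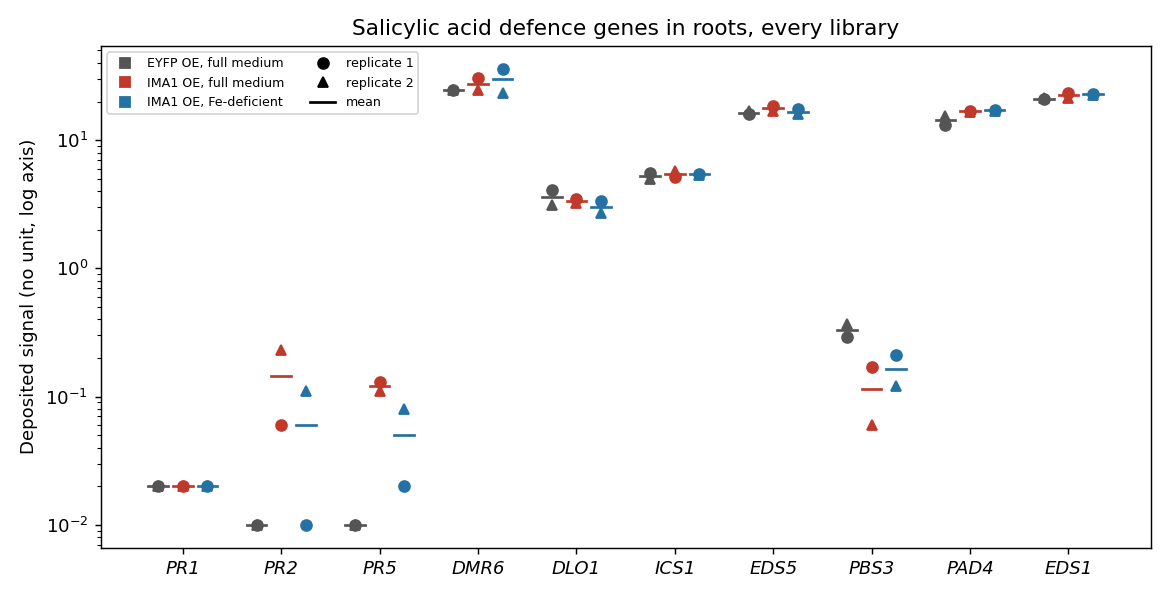
Signal of each gene in every root library on a log axis (no unit); circles and triangles are replicates 1 and 2, and short lines are means of the 2 libraries. PR1, PR2, PR5 and PBS3 lie under 1 in every group, and the other 6 genes have group means that lie close together. PAD4 and EDS1 lie narrowly above both controls in both IMA1 OE groups. DMR6 replicate 1 reaches 30.35 and 36.03 in IMA1 OE on full and Fe-deficient medium, against 24.73 and 24.51 in EYFP OE.

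**Figure D3:**
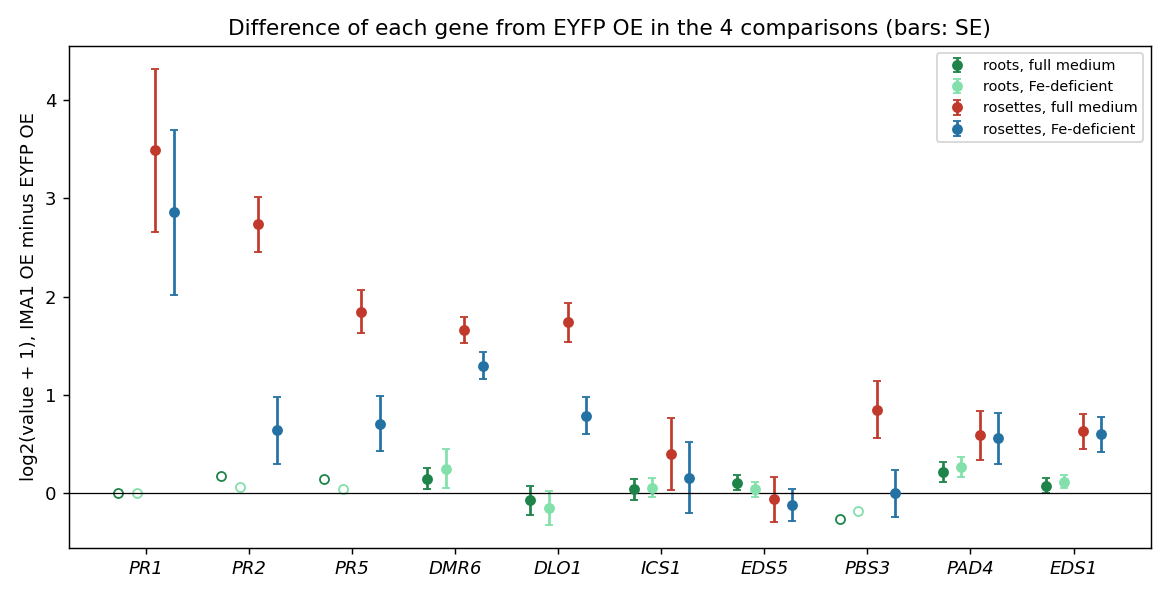
Difference of IMA1 OE from EYFP OE on the log2(value + 1) scale in the 4 comparisons; bars are standard errors from limma, and open circles are genes too low to test. Rosette differences reach 3.49 for PR1, while tested root differences lie between -0.15 and 0.27; within a tissue, both comparisons use the same EYFP OE libraries.

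Other genes of the pathway were taken from a list of 55, drawn up by function with the result for DMR6 already known. In rosettes on full medium 49 were tested and 0 were called by limma after adjustment, beside 0.0107% of all tested genes. IMA1 itself was not called there (limma adjusted p 0.15). At a limma unadjusted p under 0.05, 19 pathway genes were higher and 0 lower, beside 3.93% and 1.51% of all tested genes. This comparison prompted the choice of the pathway, so these counts are a description and not separate support. The median log2 difference of the tested pathway genes was 0.50. The WRKY transcription factor genes stood highest, 7 of 8 tested having non-overlapping higher values, beside 13.1% of all tested genes, and a median of 1.23. WRKY46, a factor of early defence, was at 29.62 and 33.53 against 7.64 and 7.82 (log2 difference 1.90). WRKY53 had a log2 difference of 1.55. PNP-A, which encodes a small secreted natriuretic-like peptide, was at 4.80 and 8.76 against 0.49 and 2.05 (1.82). All 4 listed regulators of ICS1 transcription had IMA1 OE libraries above both controls, beside the same 13.1%. Their log2 differences ran from 0.23 for CBP60a, at 17.83 and 18.88 against 13.86 and 17.44, to 1.16 for SARD1, and CBP60g was at 19.20 and 18.03 against 8.78 and 8.50. Of the 6 other synthesis genes tested, ICS2, EPS1 and the 4 PAL genes, 0 stood apart in either direction. The lowest were PAL3 (-0.38), UGT74F1 (-0.25) and PAL4 (-0.25), whose lines overlapped. EDS1B was at 3.52 and 3.96 against 1.71 in both controls.

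On Fe-deficient medium 17 of 49 tested pathway genes were higher and 0 lower in rosettes at a limma unadjusted p under 0.05, beside 3.41% and 1.76% of all genes. After adjustment by limma 0 were called, beside 0.00535%, and IMA1 was not called either (limma adjusted p 0.467). The control libraries are those of the comparison that prompted the choice, so these counts of pathway genes are likewise a description. The highest were SARD1, a regulator of ICS1 with 26.52 and 21.09 against 5.35 and 9.21 (log2 difference 1.61), WRKY46 (1.52) and WRKY70 (1.33). On full medium SARD1 was at 17.50 and 17.06 in IMA1 OE rosettes. The lowest were ICS2 (-0.22), EPS1 (-0.10) and UGT74F1 (-0.09).

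In roots on full medium 0 of 45 tested pathway genes were called by limma, with 4 higher and 1 lower at an unadjusted p under 0.05, beside 2.67% and 1.55% of all genes. The highest were GRX480 (0.77), WRKY46 (0.57) and WRKY40 (0.53), whose groups overlapped, and the lowest were ICS2 (-0.61), FMO1 (-0.23) and EPS1 (-0.16). On Fe-deficient medium 2 of 46 were called, both higher, beside 0.773% of all tested genes, with 8 higher and 3 lower at an unadjusted p under 0.05, beside 5.05% and 4.09%. These were phenylalanine ammonia-lyase genes, which open the phenylpropanoid pathway that also feeds coumarins and lignin. PAL2 rose from 90.00 and 85.76 to 306.27 in both libraries (log2 difference 1.79, SE 0.06, limma adjusted p 0.000603). The equal PAL2 values leave no spread between these libraries, and the SE and p rest on this. Whether an equalising step made them equal was not tested. PAL1 rose from 258.53 and 248.59 to 463.07 and 566.17 (log2 difference 1.01, SE 0.11, limma adjusted p 0.0287). The PAL1 call was lost when either EYFP OE library (limma adjusted p 0.184 and 0.183) or IMA1 OE replicate 2 (0.0595) was left out, and without the filter on low values (0.379) or the intensity trend (0.0779). ICS2, the second isochorismate synthase gene, had a log2 difference of -0.48 and did not pass (limma adjusted p 0.454).

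**Figure D4:**
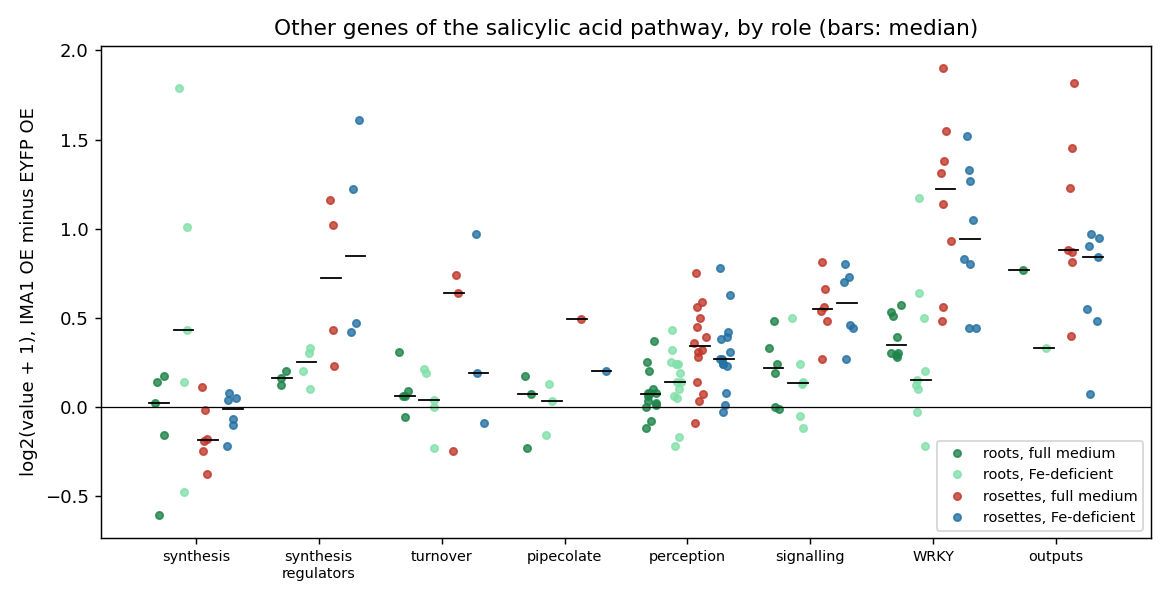
Difference of IMA1 OE from EYFP OE on the log2(value + 1) scale for tested genes of the pathway list, grouped by role; each point is a gene and bars are medians. In rosettes on full medium the WRKY group has a median of 1.23 and the synthesis group -0.18. The highest root values on Fe-deficient medium are PAL2 (1.79), WRKY62 (1.17) and PAL1 (1.01). WRKY62 passed the filter only through its IMA1 OE libraries (1.77 and 1.64, against 0.14 and 0.27 in EYFP OE). It was not called (limma adjusted p 0.0678).

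The genes whose pattern lay nearest to DMR6 were found by the mean absolute difference in log2(value + 1), each gene centred on its own mean, over the 12 libraries, among 17158 genes. They were AT2G32140 (0.193), the urea transporter gene DUR3 (0.205), PARG2 (0.206), CNI1, also named ATL31 (0.207), and AT3G13950 (0.209), where the median over all compared genes was 0.634. DUR3 was at 9.70 and 7.95 in IMA1 OE rosettes on full medium against 2.55 and 2.92 in EYFP OE rosettes, and at 8.27 and 6.71 against 4.08 and 4.97 in roots. Among the 5 other genes of the set that passed the filter in all 4 tables, EDS1 came nearest to DMR6, in place 150, followed by DLO1 in place 534 and PAD4 in place 633. EDS5 was in place 14727. Likeness in this measure is a description and carries levels from 4 separately normalised tables.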

How the data were processed

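PolyA RNA of 12 samples in 6 groups of 2 was sequenced. The authors deposited 4 tables with a normalised expression signal per library, named TMM, with a p-value from a Z-test and a log2 fold change per gene, per the file headers. The submitters' processing notes name TAIR10, bcl2fastq 1.8.4, Trimmomatic 0.35, Bowtie2 2.0.6, edgeR 3.12.1 and limma 3.26.9, with no role or order. Read counting is not given in the sources used here. In the rosette tables same-numbered columns shared their highest value (12115.89 and 11895.39 on full medium), and columns of a table were close in distribution, so equalising steps may have narrowed differences between libraries. Depth is unknown.

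The 4 rows of transgene constructs were left out, and 0 per-sample columns were unused. Each table was fitted alone with limma 3.58.1 in R 4.3.3 on log2(value + 1), without covariates, for genes that reached 1 in 2 or more libraries (lmFit, eBayes with trend, two-sided). P-values were Benjamini-Hochberg adjusted over all tested genes, with a threshold of 0.05. The fit was also run on simulated data with normal errors and with the spreads shuffled among genes. These settings differ from the real data, and no conclusion is drawn from that run. Alternatives were a pseudocount of 0.1, no filter, no trend, median scaling, a replicate block and leaving out each library. The members and lists were chosen with earlier results of these data known. All members are named. Of the pathway list, genes past the threshold are named, or otherwise the 3 highest and 3 lowest, and others (CBP60a, CBP60g, EDS1B, WRKY62, ICS2 in Fe-deficient roots and SARD1 on full medium) were picked after their values were seen. Locus names were matched to RefSeq. The promoter of 1 gene is not reported here.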

Additional observations from a re-analysis of the deposited data

Results flagged for a closer look

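PBS3 moved in opposite directions in the tissues on full medium: both IMA1 OE libraries lay below both EYFP OE libraries in roots (log2 difference -0.26) and above them in rosettes (0.85). All 4 root values were under 0.4, too low to test, and the difference between tissues was not tested.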

How the results depend on the processing

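Over the alternatives run for each of the 10 genes, 82 of 90 values in roots on full medium were counted as unmoved. The count was 84 in roots on Fe-deficient medium and 89 in each rosette comparison. Tested root genes counted when they kept their direction and side of the threshold. Rosette values and root genes too low to test counted when they moved by no more than the spread between replicates. Leaving out a library cannot exceed that spread, and the filter, trend and block settings leave these differences unchanged. Their counts were thus largely fixed beforehand and do not show stability. The sign turned for ICS1 (-0.02 without EYFP OE or IMA1 OE replicate 2) and DLO1 (0.08 without EYFP OE replicate 1, -0.22 without replicate 2) in roots on full medium, and for DMR6 (-0.05, and 0.55 without replicate 2) and EDS5 (-0.02) in roots on Fe-deficient medium without IMA1 OE replicate 1. In rosettes it turned, within that spread, for EDS5 on full medium (0.02 without EYFP OE and 0.24 without IMA1 OE replicate 1), and on Fe-deficient medium for ICS1 (-0.23 without EYFP OE replicate 1, -0.18 without IMA1 OE replicate 2) and EDS5 (0.03 without IMA1 OE replicate 1). No root call of a set gene was made under any of these alternatives.

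All genes called numbered 7, 181, 2 and 1 (roots on full and Fe-deficient medium, then rosettes). Without the filter they were 143, 177, 113 and 130 in the same order, with 1 pathway gene called in Fe-deficient roots. Without the trend 120 were called in Fe-deficient roots, and with a pseudocount of 0.1 it was 1 in rosettes on full medium. That pseudocount moved the pathway medians in rosettes to 0.61 and 0.50. Leaving out 1 library gave 0 to 4, 55 to 80, 0 to 10 and 0 to 4 calls, 1 to 2 pathway calls in Fe-deficient roots, and a pathway median of 0.35 to 0.52 in Fe-deficient rosettes. The group left with 1 library is then assumed to vary like the other. The cause was not tested.

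With the replicate number as a block, 16 and 323 genes were called in roots on full and Fe-deficient medium, and 60 in rosettes on full medium, among them 5 of the pathway list. Calls of the set in rosettes are not reported, since it was chosen there. Replicate differences of the 2 lines correlated across genes at 0.24 to 0.45, but the labels do not say that a number marks a shared batch. Unknown depth limits every value near the floor.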
